A study of Mus musculus with 8 samples.

Results

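The checkpoint and nectin-binding receptors of NK cells are a set of 8 genes, *Tigit*, *Cd96*, *Cd226*, *Cd160*, *Lag3*, *Havcr2*, *Ctla4* and *Pdcd1*, taken by symbol from the 48321 gene symbols of the count files. Of these, 7 were among the 12595 genes kept for testing by edgeR's low-count filter, and *Pdcd1* was not. RNA was sequenced from freshly sorted NK cells (CD45+ TCRb- NK1.1+) of lung and spleen, with mice on the C57/Bl6 background throughout. The genotypes were *Wt* (WT in the labels) and KO, which stands for *Ccl5* ΔPE/ΔPE, a homozygous germline deletion of *Ccl5-PE*, the proximal enhancer of the chemokine gene *Ccl5*, made with a pair of gRNAs. The deletion is therefore carried by every cell type of the KO mice, and not by NK cells alone. The labels give no age or sex for these mice, and the study describes mice of mixed sexes, at most 4 months old. Organ and genotype make 4 groups of 2 libraries, and the comparisons ask how the receptors differ between KO and *Wt* in each organ, whether the KO effect differs between organs, and how lung and spleen differ within each genotype.

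The reads counted on genes numbered 8444054 and 3992951 for lung *Wt*, 4783978 and 7196662 for lung KO, 3882458 and 8299635 for spleen *Wt*, and 3132963 and 26482366 for spleen KO. Levels are given in CPM on TMM-scaled library sizes. A floor of 3 reads in a library, the upper limit that a count of 0 allows, lay between 0.115 and 0.979 CPM, and such floors and the counting intervals below cover counting error only. The labels do not say whether a group's 2 libraries stem from different mice, so p-values measure the spread between libraries, which may be technical. That spread was narrow, with a common biological coefficient of variation of 2.50%.

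TIGIT, CD96 and CD226 are receptors of the immunoglobulin superfamily that compete for the same ligands, CD155 (encoded by *Pvr*) and nectins, on the surface of other cells. CD226 activates NK cells and TIGIT inhibits them, so the balance of the pair sets how an NK cell responds to a ligand-bearing cell, and CD96 binds CD155 with a mostly inhibitory role in mice. CTLA-4, PD-1, LAG-3 and TIM-3 (encoded by *Havcr2*) are inhibitory checkpoints best known from activated and exhausted T cells, and CD160 is a receptor for the herpesvirus entry mediator on NK and T cells.

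*Ccl5*, the gene whose enhancer is deleted, was counted at 19518 and 18350 CPM for lung *Wt*, 2992 and 3195 for lung KO, 16679 and 15664 for spleen *Wt*, and 2676 and 2432 for spleen KO. All 4 KO libraries lay far below all *Wt* libraries. The log2 fold change of KO against *Wt* was -2.61 in lung and -2.67 in spleen. Markers of NK cells were abundant in every library. *Ncr1*, which encodes the receptor NKp46, lay between 2801 and 3456 CPM, and *Klrb1c*, which encodes the sorting marker NK1.1, between 3305 and 4239 CPM. Both were lower with KO in lung and higher with KO in spleen. The sum of the NK list, led by *Gzma*, was 54374 and 52717 CPM in lung *Wt* and 42241 and 42740 in lung KO. In spleen it was 40336 and 39562 CPM in *Wt* and 53761 and 51214 in KO. *Tbx21* and *Prf1* of the list went the opposite way in both organs. *Cd4* and *Cd8a*, which mark conventional T cells, did not exceed 1.02 and 2.25 CPM in any library. Other genes of the T cell list were well counted. *Trbc1* lay between 202 and 339 CPM and *Cd3d* between 14.1 and 72.1 CPM, and the list summed to between 522 and 923 CPM. Other cell types left traces. B cell markers, led by *Ighm*, summed to 296 and 308 CPM (lung *Wt*), 248 and 253 (lung KO), 516 and 531 (spleen *Wt*) and 632 and 617 (spleen KO). Markers of γδ T cells, led by *Trdc*, summed to 342 and 330, 291 and 274, 428 and 443, and 510 and 490 CPM in the same order. Both sums were lower in lung than in spleen, and with KO lower in lung and higher in spleen. The alveolar gene *Sftpc* had no read in spleen, and in lung 152 and 156 CPM in *Wt* and 251 and 282 in KO. Summed markers of resident innate lymphoid cells, led by *Il7r*, fell in lung from 117 and 113 CPM in *Wt* to 64.7 and 63.3 in KO. Spleen libraries had 161 and 174 CPM (*Wt*) against 141 and 152 (KO). *Itga1* of this list went the other way in lung, with 7.83 and 8.55 CPM in *Wt* and 11.9 and 9.12 in KO. The part of such cells in the results below was not tested. In such bulk samples, fewer cells of a type and less RNA per cell cannot be told apart.

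Per kilobase of merged exons (CPM per kb), *Tigit* had the highest level of the set in every group, followed by *Cd96*, *Cd160* and *Cd226*. The mean level of *Tigit* was 126 CPM per kb in lung *Wt*, 171 for lung KO, 137 for spleen *Wt* and 166 for spleen KO. *Cd226* lay at 21.1, 13.1, 18.6 and 15.7 CPM per kb in the same groups. Within each group, no library of one of these 4 genes overlapped those of the next in the order. The classic T cell checkpoints came last, with group means of at most 2.70 CPM per kb for *Lag3*, 1.34 for *Havcr2*, 1.29 for *Ctla4* and 0.946 for *Pdcd1*. Some neighbours at the low end were not separated beyond the spread between libraries, namely *Havcr2* and *Ctla4* in lung KO, *Havcr2* and *Pdcd1* in spleen *Wt*, and *Lag3* and *Ctla4* in spleen KO. *Ctla4* and *Pdcd1* were both at 0 for lung *Wt*.

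**Figure D1:**
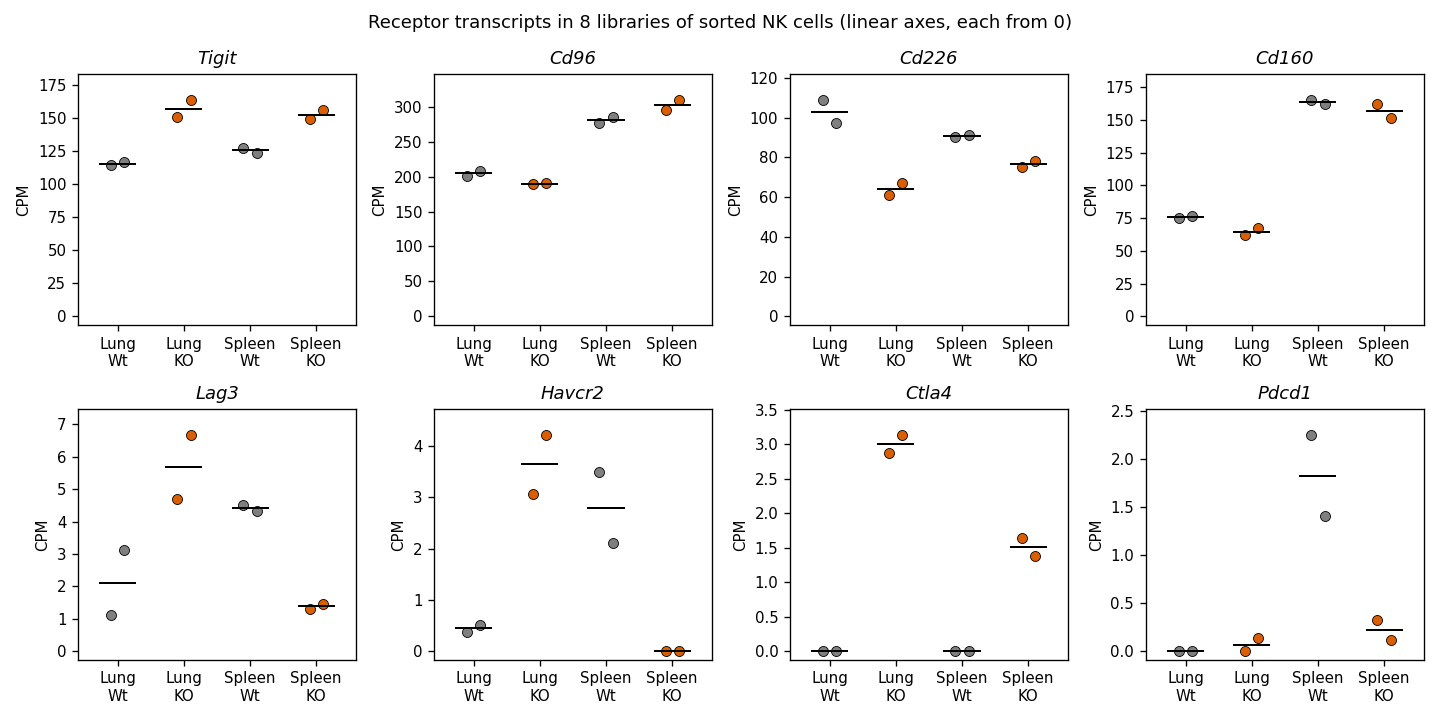
Level in CPM (vertical, linear axis from 0) of each receptor gene in the 8 libraries, by organ and genotype; points are libraries (grey, *Wt*; orange, KO) and lines are means of 2. *Tigit* is higher and *Cd226* lower in KO of both organs, *Havcr2* and *Lag3* are higher in lung KO and lower in spleen KO than in *Wt*, and *Ctla4* has reads in KO libraries only.

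Between KO and *Wt*, 6 of the 7 tested genes differed in lung at a false discovery rate (FDR) of 0.05, where 55.6% of all genes tested did. In spleen, 6 of 7 differed against 57.1% of all genes tested. The KO effect differed between the organs for 4 genes, against 61.6% of all genes tested. *Wt* libraries of lung and spleen differed for 5 genes (57% of all genes tested), and KO libraries of lung and spleen for 6 (65.6% of all genes tested). With most of the transcriptome called in every comparison, these shares say little about the receptors, and direction and size follow gene by gene. *Lag3*, *Havcr2* and *Ctla4* had fewer than 10 reads in at least 1 library and entered the test through the groups in which they were counted. *Ctla4*, with no read in *Wt*, could enter only through KO, so the counts of genes called are no support for an effect on the set.

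*Tigit*, an inhibitory member of the nectin-binding set, was counted at 114 and 117 CPM for lung *Wt*, 151 and 164 for lung KO, 128 and 124 for spleen *Wt*, and 149 and 157 for spleen KO. All 4 KO libraries lay above all 4 *Wt* libraries. The log2 fold change was 0.46 in lung (SE 0.06, edgeR adjusted p = 3.7e-08, where the adjustment is Benjamini and Hochberg's across the 12595 genes, here and below). In spleen it was 0.30 (SE 0.05, edgeR adjusted p = 1.1e-05). Both calls are lost when every gene is given a biological coefficient of variation of 0.2. These effects were not shown to differ between the organs (0.15 on the log2 scale, SE 0.08, edgeR adjusted p = 0.10), although library totals called a difference of 0.31, and the GC offset turned it to -0.17 without a call. Nor did the test separate lung from spleen, with log2 differences of -0.12 in *Wt* (edgeR adjusted p = 0.091) and 0.03 in KO (edgeR adjusted p = 0.63). Here too the scaling matters, since library totals called the *Wt* difference (-0.23) and the GC offset called the KO difference (-0.15).

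*Cd226*, the activating receptor for the same ligands, went the other way. Its level was 109 and 97.1 CPM for lung *Wt*, 61.2 and 67.1 for lung KO, 90.4 and 91.4 for spleen *Wt*, and 75.4 and 78.1 for spleen KO. All 4 KO libraries lay below all 4 *Wt* libraries, and lung KO was the lowest group. The log2 fold change was -0.69 in lung (SE 0.07, edgeR adjusted p = 2.8e-10), a fall to 0.618 of the *Wt* level. In spleen it was -0.23 (SE 0.06, edgeR adjusted p = 0.0025), a call lost with DESeq2 (-0.23) and without replicate 2 of spleen *Wt*, while leaving out single libraries kept the value between -0.28 and -0.22. An assumed coefficient of variation of 0.2 ends both calls. The lung effect was the larger by 0.46 on the log2 scale in this fit (difference -0.46, SE 0.10, edgeR adjusted p = 8.4e-05), an order that depends on the treatment of GC content given below. Accordingly, lung exceeded spleen in *Wt* (log2 difference 0.20, edgeR adjusted p = 0.012) and fell below it in KO (-0.26, edgeR adjusted p = 0.0011). The first call is lost without replicate 1 of lung *Wt* or replicate 2 of spleen *Wt* (values from 0.10 to 0.27) and with library totals (0.09) or DESeq2 (0.21). The second is lost without replicate 2 of spleen KO (values from -0.34 to -0.21) and with the GC offset (-0.08). Platelet markers moved with *Cd226* as a sum, at 66.8 and 66.3 CPM in lung *Wt* and 35.2 and 44.9 in lung KO. In spleen the sum was 36.7 and 31.7 CPM in *Wt* and 17.6 and 19.2 in KO. *Gp1bb*, the most abundant of the list, overlapped between genotypes in lung, and *Ppbp* was higher in spleen KO. The part of platelets in the *Cd226* result was not tested.

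*Cd96*, which encodes another receptor for CD155, differed little between genotypes. Lung libraries held 202 and 208 CPM in *Wt* and 189 and 191 in KO, and spleen libraries 276 and 285 in *Wt* and 296 and 309 in KO. All spleen libraries lay above all lung libraries, whereas KO and *Wt* were close. The KO effect was -0.10 in lung (SE 0.05, edgeR adjusted p = 0.088) and 0.12 in spleen (SE 0.04, edgeR adjusted p = 0.023), and the effects differed by -0.22 (SE 0.07, edgeR adjusted p = 0.0052). The spleen call and the difference rest on the scaling and the libraries. The spleen call is lost in 8 of 20 alternatives, among them DESeq2 (0.12), library totals (0.05) and the GC offset (0.07). Leaving out single libraries gave values between 0.07 and 0.14 and ended the call for 2 libraries (spleen *Wt* replicate 1 and spleen KO replicate 2). The difference was -0.06 with library totals, and its call is also lost without replicate 2 of spleen KO (values from -0.25 to -0.17). Lung was lower than spleen by 0.46 on the log2 scale in *Wt* (log2 difference -0.46, edgeR adjusted p = 2.1e-10) and by more in KO (-0.68, edgeR adjusted p = 1.2e-15). Both organ calls are lost when a coefficient of variation of 0.2 is assumed, with values of -0.45 in *Wt* and -0.67 in KO.

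Since TIGIT and CD226 compete for ligand, the ratio of their transcripts was taken within each library, where scaling by library size cancels. Per kilobase, *Tigit* exceeded *Cd226* 5.60-fold and 6.40-fold in lung *Wt*, 13.1-fold and 13.0-fold in lung KO, 7.51-fold and 7.23-fold in spleen *Wt*, and 10.5-fold and 10.7-fold in spleen KO. The ratio was higher in every KO library than in every *Wt* library, with lung at both ends of the range. An exact permutation test of 2 libraries against 2 cannot give a 2-sided p below 0.333, so none was made of the ratio. From the fitted effects, the ratio rose by 1.15 on the log2 scale in lung and by 0.53 in spleen. Over 20 alternative settings, this rise stayed between 0.51 and 1.22 in lung and between 0.50 and 0.93 in spleen. *Cd96* over *Cd226* per kilobase was likewise higher in KO, at 4.15 and 4.80 for lung *Wt* against 6.92 and 6.38 for lung KO, and at 6.84 and 6.99 for spleen *Wt* against 8.78 and 8.87 for spleen KO.

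**Figure D2:**
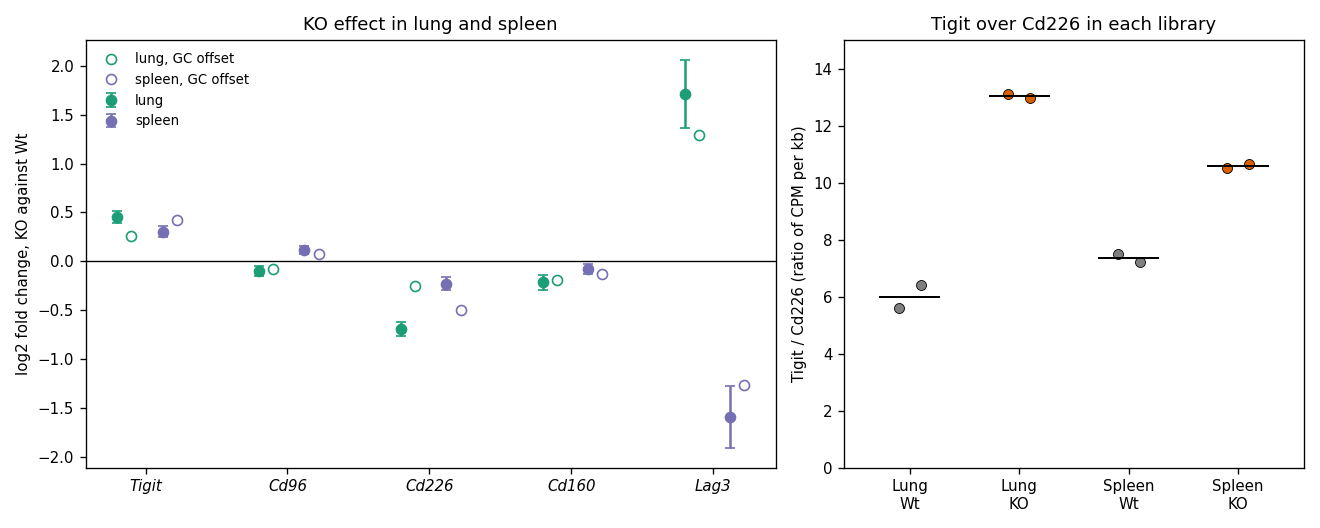
Left, log2 fold change of KO against *Wt* for 5 receptor genes in lung and spleen (filled points, bars are SE; open points, the same after removal of each library's trend with GC content). Right, ratio of *Tigit* to *Cd226* in CPM per kb in each library (points; lines are means of 2). *Tigit* is above 0 and *Cd226* below 0 in both organs with and without the GC offset, *Lag3* has opposite signs in the organs, and the ratio is higher in KO (10.5 to 13.1) than in *Wt* libraries (5.60 to 7.51).

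The members of the nectin-binding pair differ in base composition, with a GC content of 52.3% for *Tigit* exons and 35.0% for *Cd226* exons. Across all genes tested with known GC content, the log2 fold changes had a Spearman correlation with GC content of 0.29 in lung and -0.27 in spleen, so the trend ran in opposite directions in the organs (genes are not independent replicates). With an offset that removes each library's GC trend, *Tigit* rose by 0.26 in lung and 0.43 in spleen, and *Cd226* fell by 0.26 in lung and by 0.50 in spleen, each still called. Opposite directions of the pair within each organ thus did not depend on the GC trend. The order of the organs did. The difference of the *Cd226* effects turned from -0.46 to 0.25, and that between lung and spleen in *Wt* from 0.20 to -0.33, both called in the new direction. The difference between lung and spleen in KO shrank from -0.26 to -0.08 and was no longer called. Whether the GC trend is technical was not tested.

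*Cd160* separated the organs more than the genotypes. Lung libraries held 75.0 and 76.9 CPM in *Wt* and 62.0 and 67.3 in KO, and spleen libraries 165 and 162 in *Wt* and 162 and 152 in KO. Every spleen library lay above every lung library. The log2 difference of lung against spleen was -1.11 in *Wt* (SE 0.06, edgeR adjusted p = 2.0e-17) and -1.24 in KO (SE 0.06, edgeR adjusted p = 1.2e-19), and it held under all 20 alternative settings, from -1.22 to -1.07 in *Wt* and from -1.31 to -1.19 in KO. The KO effect was -0.22 in lung (SE 0.07, edgeR adjusted p = 0.014), a call lost in 6 of 20 alternatives. Over the alternatives its value ranged from -0.29 to -0.12 and its adjusted p from 0.010 to 0.71, and leaving out replicate 1 of lung *Wt* or replicate 1 of lung KO was enough to end it. In spleen the *Wt* and KO libraries overlapped (-0.08, SE 0.05, edgeR adjusted p = 0.18), although library totals (-0.15) and the GC offset (-0.14) called a lower level in KO. The exons of *Cd160* share 68 bp with *Pdzk1* on the other strand, and reads there cannot be told apart unless strand was used in counting, which is not given in the sources used here.

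*Lag3*, which encodes an inhibitory receptor for MHC class II, was scarce and changed in opposite directions. Lung libraries had 9 and 12 reads in *Wt* (1.1 and 3.11 CPM) and 23 and 49 in KO (4.71 and 6.67 CPM). Spleen libraries had 18 and 37 reads in *Wt* (4.50 and 4.32 CPM) and 4 and 38 in KO (1.31 and 1.46 CPM). KO therefore exceeded *Wt* in lung and fell below it in spleen, without overlap of the groups in either organ. In pooled counts, KO was 3.34 times *Wt* in lung (95% counting interval 2.03 to 5.71) and 0.329 times *Wt* in spleen (0.215 to 0.50). The log2 fold change was 1.72 in lung (SE 0.35) and -1.60 in spleen (SE 0.32), and these effects differed by 3.31 (SE 0.47). The edgeR adjusted p was 7.2e-05 in lung (1.1e-06 to 0.077 over the alternatives), 5.3e-05 in spleen (8.1e-07 to 0.033) and 1.4e-07 for the difference (8.1e-13 to 0.00025). These p-values are conditional on the gene having passed the filter through its high groups, and the lowest of each range come from the fit to the 21508 symbols with at least 1 read. *Lag3* exons have the highest GC content of the set (59.9%), and the GC offset reduced the effects to 1.30 in lung and -1.27 in spleen and their difference to 2.56. The lung value rests on the *Wt* libraries, which themselves differ. Without replicate 1 of lung *Wt*, it was 0.91 and no longer called, and leaving out single libraries moved it up to 2.37. In *Wt*, lung was at 0.403 of the spleen level (95% counting interval 0.231 to 0.677; log2 difference -1.30), a call lost with DESeq2 (-1.17) and without replicate 1 of lung *Wt* (-0.48). In KO, lung was at 4.09 times the spleen level (2.76 to 6.13; log2 difference 2.02).

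*Havcr2*, which encodes TIM-3, crossed in the same directions as *Lag3*. Reads numbered 3 and 2 for lung *Wt* (0.373 and 0.518 CPM), 15 and 31 for lung KO (3.07 and 4.22 CPM), 14 and 18 for spleen *Wt* (3.50 and 2.1 CPM), and 0 and 0 for spleen KO. The spleen KO libraries include the deepest of the series, with 26482366 reads on genes and still no read of *Havcr2*. In lung, the pooled ratio of KO to *Wt* was 8.95 with a 95% counting interval from 3.57 to 28.9 (log2 fold change 3.11, SE 0.52). In spleen, KO was at least 24.8-fold lower than *Wt*, set against 3 reads over the group. The edgeR adjusted p was 4.7e-06 in lung (3.8e-08 to 0.0028 over the alternatives), again conditional on the gene having passed the filter through its high groups. No p-value is given for spleen, where KO had no reads and the bound carries the result. The spleen bound rests on replicate 2 of spleen KO, without which it is at least 2.60-fold. The effects of the organs had opposite signs, and lung KO exceeded spleen KO at least 36.6-fold (at least 3.84-fold without replicate 2 of spleen KO). In *Wt* the order was reversed, with a pooled ratio of lung to spleen of 0.165 and a 95% counting interval from 0.0502 to 0.426.

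TIM-3 is also known from myeloid cells and innate lymphoid cells, so marker lists of these cells are set beside *Havcr2*. Of 8 myeloid markers, 5 had a read in some library, *Itgax* was the most abundant, and the macrophage and neutrophil markers *Adgre1*, *S100a8* and *S100a9* were at 0 in all 8 libraries. The summed level of the list was 159 and 163 CPM for lung *Wt*, 170 and 181 for lung KO, 166 and 173 for spleen *Wt*, and 176 and 174 for spleen KO, and is mostly that of *Itgax*. *Lyz2*, expressed by macrophages, had 12.2 and 15.8 CPM in lung *Wt* and 23.5 and 25.2 in lung KO, so in lung it was higher in KO, as *Havcr2* was, while in spleen it did not exceed 4.10 CPM. *Cd68*, another macrophage marker, went the opposite way to *Havcr2* in both organs, from 15.7 and 14.2 CPM in *Wt* to 8.39 and 11.2 in KO of lung, and from 14.99 and 12.7 to 21.5 and 18.6 in spleen. The myeloid markers thus had no common direction. Of 5 markers of group 2 innate lymphoid cells (ILC2), 3 had a read, *Il5* and *Il13* were at 0 in all libraries, and *Gata3* was the most abundant. Their sum was 377 and 383 CPM for lung *Wt*, 421 and 438 for lung KO, 425 and 421 for spleen *Wt*, and 358 and 351 for spleen KO. The sum follows *Gata3*, which makes up most of it and moved in the direction of *Havcr2* by a far smaller factor. *Rora*, another marker of the list, went the other way in spleen, with 18.5 and 20.0 CPM in *Wt* and 28.4 and 24.8 in KO. The part of such cells in the result was not tested.

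*Ctla4*, which encodes an inhibitory receptor for CD80 and CD86, had reads in KO libraries only. They numbered 14 and 23 for lung KO (2.87 and 3.13 CPM) and 5 and 36 for spleen KO (1.63 and 1.38 CPM), against 0 in each of the 4 *Wt* libraries. Against 3 reads over the *Wt* group, KO was at least 12-fold higher in lung and at least 5.89-fold higher in spleen. No p-value is given for *Ctla4*, since any gene without reads in *Wt* enters a test only through KO. Leaving out the deeper *Wt* library lowers the bound to at least 3.89-fold in lung (without replicate 1) and at least 1.88-fold in spleen (without replicate 2). Within KO, the pooled ratio of lung to spleen was 2.15 with a 95% counting interval from 1.34 to 3.44. The fitted log2 difference was 1.09 (SE 0.34), and single libraries left out gave values from 0.89 to 1.14. Its call was lost without replicate 2 of lung KO, without replicate 2 of spleen KO and with DESeq2. With both *Wt* groups at 0, a difference of the KO effects could not be estimated.

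*Ctla4* is abundant in regulatory T cells, whose markers are therefore given. All 3 listed markers had a read in some library, with *Il2ra* the most abundant and *Ikzf4* at 1 read in all libraries together. Their sum was 13.7 and 11.1 CPM for lung *Wt*, 10.8 and 11.2 for lung KO, 15.2 and 12.2 for spleen *Wt*, and 5.55 and 6.20 for spleen KO. The defining marker *Foxp3* stood at 6.46 and 5.18 CPM for lung *Wt* and 5.73 and 6.12 for lung KO, and at 4.75 and 4.56 CPM for spleen *Wt* and 1.96 and 2.95 for spleen KO. In lung its KO libraries lay within the *Wt* range, and in spleen they lay below it. The part of these cells in the *Ctla4* result was not tested.

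*Pdcd1*, which encodes PD-1, was near or below the limit of detection. It had 0 and 0 reads in lung *Wt*, 0 and 1 for lung KO, 9 and 12 for spleen *Wt*, and 1 and 3 for spleen KO. Spleen *Wt* was the only group above the floor in each library, at 2.25 and 1.40 CPM. The pooled ratio of KO to *Wt* in spleen was 0.0820, with a 95% counting interval from 0.0205 to 0.243. This ratio rests mostly on replicate 2 of spleen KO, at 0.115 CPM, while replicate 1 stood higher at 0.326 CPM from 1 read. Spleen *Wt* exceeded lung *Wt* at least 6.63-fold (at least 2.15-fold without replicate 1 of lung *Wt*). The gene was tested only in the alternative that keeps the 21508 symbols with at least 1 read, which called the spleen KO effect (log2 fold change -3.46, edgeR adjusted p = 1.4e-05). No p-value is given for lung against spleen in *Wt*, since lung *Wt* had no reads and the bound carries that result. With 1 read over the 4 lung libraries, no fold is given for KO against *Wt* in lung. Markers of T cells moved with it in part. All 13 markers of the T cell list had a read in some library, with *Trbc1* the most abundant, and their sum was higher in spleen KO (923 and 898 CPM) than in spleen *Wt* (826 and 818 CPM), lung *Wt* (665 and 645 CPM) and lung KO (522 and 561 CPM). *Cd3e* alone stood at 32.0 and 32.5 CPM for spleen *Wt* against 7.51 and 11.1 for spleen KO, 7.71 and 6.99 for lung *Wt* and 6.35 and 7.48 for lung KO. *Cd8a* had 9 and 8 reads in spleen *Wt* and at most 1 in any other library. Their part in the *Pdcd1* result was not tested.

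Ligands of the receptors are mostly displayed by other cells, and 8 of 17 listed ligand genes passed the filter. Of all genes tested, 29.2% were higher and 26.4% lower in lung KO, and 28.2% were higher and 28.9% lower in spleen KO. In lung, 3 ligand genes were higher and 2 lower in KO, with a median log2 fold change of 0.02 (0.02 over all genes tested). In spleen, 1 was higher and 3 were lower, with a median of -0.02 (0.00 over all genes tested). With the GC offset the medians turned to -0.06 and 0.09, so no direction is read from them. *Pvr*, which encodes the ligand shared by TIGIT, CD96 and CD226, was higher in lung KO, at 14.9 ± 4.13 CPM (SD, n = 2) against 5.66 ± 1.15 for lung *Wt* (log2 fold change 1.41, edgeR adjusted p = 1.1e-06). In spleen it was 4.81 ± 1.27 CPM in KO and 5.32 ± 0.251 in *Wt*, without a call (edgeR adjusted p = 0.86). The fitted log2 value of 0.06 has the opposite sign to the difference of these means, and its sign turned in 5 alternatives, so no direction is given. The effects of the organs differed by 1.36 (edgeR adjusted p = 0.00054). *Cd86*, which encodes a ligand of CTLA-4, fell in both organs, from 17.3 ± 0.771 to 3.88 ± 0.281 CPM in lung (-2.13, edgeR adjusted p = 3.9e-11) and from 13.9 ± 0.484 to 7.82 ± 1.83 CPM in spleen (-0.65, edgeR adjusted p = 0.00038). *Cd274*, which encodes the PD-1 ligand PD-L1, was lower in spleen KO (-0.82, edgeR adjusted p = 8.3e-05). *Lgals9*, which encodes the TIM-3 ligand galectin-9, was the most abundant of the list in CPM, and its rise in lung (0.13, edgeR adjusted p = 0.025) turned to -0.05 with the GC offset.

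Other inhibitory and costimulatory receptors numbered 28 in the list, of which 25 were found and 21 tested. In lung 8 were higher and 10 lower in KO (median -0.06), where 29.2% and 26.4% of all genes tested were. In spleen 9 were higher and 5 lower (median 0.06), where 28.2% and 28.9% of all genes tested were. With library totals these medians turned to 0.03 in lung and -0.01 in spleen, so no direction is read from them. *Adora2a*, which encodes an inhibitory adenosine receptor, followed the pattern of *Lag3* and *Havcr2*, with 76.0 ± 3.91 CPM for lung *Wt*, 142 ± 8.47 for lung KO, 105 ± 3.6 for spleen *Wt* and 39.7 ± 0.239 for spleen KO (SD, n = 2). Its log2 fold change was 0.93 in lung (edgeR adjusted p = 1.6e-14) and -1.40 in spleen (edgeR adjusted p = 5.0e-19), and the effects differed by 2.33 (edgeR adjusted p = 6.2e-22). *Cd200r1*, which encodes the inhibitory receptor for CD200, was lower in lung KO (-1.57, edgeR adjusted p = 1.1e-06), as was the sum of the resident innate lymphoid markers, to which it belongs. *Crtam*, which encodes a receptor for the nectin-like molecule CADM1, was also lower there (-0.53, edgeR adjusted p = 3.8e-07).

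Signalling partners of the receptors were all tested, with more genes higher in lung KO and more genes lower in spleen KO. In lung, 12 of 23 were higher and 6 lower in KO (median 0.16, against 0.02 over all genes tested, of which 29.2% were higher and 26.4% lower). In spleen 3 were higher and 13 lower (median -0.17, against 0.00 over all genes tested, of which 28.2% were higher and 28.9% lower). With the GC offset these counts became 10 and 7 in lung (median 0.07) and 5 and 7 in spleen (median -0.08), so the imbalance is smaller there. *Prkch*, which encodes protein kinase C eta, rose in lung (0.86, edgeR adjusted p = 1.5e-18) and fell in spleen (-0.78, edgeR adjusted p = 1.2e-17). *Sh2d1b1*, which encodes the adaptor EAT-2, did the reverse (-0.48, edgeR adjusted p = 4.7e-07, and 0.62, edgeR adjusted p = 2.0e-10). *Itgb2*, which encodes the beta chain of the integrin LFA-1 that partners CD226, rose by 0.41 in lung (edgeR adjusted p = 2.8e-12) and fell by 0.58 in spleen (edgeR adjusted p = 4.3e-16).

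Transcription factors linked to exhaustion, which accompany checkpoint receptors in chronically stimulated T cells, showed no common direction. Of 18 tested among 19 listed, 8 were higher and 6 lower in lung KO (median 0.02, and -0.11 with the GC offset), and 7 were higher and 7 lower in spleen KO (median -0.15). The shares over all genes tested were 29.2% higher with 26.4% lower in lung, and 28.2% higher with 28.9% lower in spleen. *Nr4a1*, an early response gene, had 49.5 ± 7.98 CPM for lung *Wt*, 178 ± 11.5 for lung KO, 13.8 ± 0.459 for spleen *Wt* and 2.39 ± 1.07 for spleen KO (SD, n = 2). Lung exceeded spleen in both genotypes, and the KO effects had opposite signs. Its log2 fold change was 1.90 in lung (edgeR adjusted p = 2.2e-21) and -2.22 in spleen (edgeR adjusted p = 6.6e-12). *Prdm1*, which encodes the repressor BLIMP-1, crossed the other way (-0.86, edgeR adjusted p = 1.3e-07, and 0.55, edgeR adjusted p = 0.00011). *Tox*, a factor required for exhausted T cells, was lower in lung KO (-0.63, edgeR adjusted p = 2.0e-10).

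In the GRCm38 genome, *Tigit* (chromosome 16, 43648867 to 43664146) and *Cd96* (chromosome 16, 46035657 to 46120251) lie on the minus strand of the same chromosome. *Cd226* lies on chromosome 18, *Cd160* on chromosome 3, *Lag3* on chromosome 6 and *Havcr2* on chromosome 11 (46454935 to 46481255, plus strand). *Ctla4* (60887000 to 60915832, plus strand) and *Pdcd1* (94038305 to 94052553, minus strand) are both on chromosome 1. All 8 are protein-coding.

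The genes whose log2 CPM resembled each receptor most over the 8 libraries were ranked by Pearson's r, as a description in which libraries of a group and the KO and organ differences are shared. For *Tigit* these were *Gnpda1* (r = 0.99), *Fem1a* and *Dnaja2*, and 50 of 8515 genes compared had an r above 0.9. For *Cd226* they were *Exosc2* (r = 0.98), *Cd86* and *Hltf*, and 73 genes exceeded 0.9. *Havcr2* had the most such genes, 538 of 8516, led by *Kctd10* (r = 0.99), *Gata3* and *Was*. *Cd160* resembled *Cd3g* (r = 0.999), *Fnta* and *Tcrg-C4*, so the CD3 gamma chain and a T cell receptor gamma constant gene follow the organ difference of *Cd160*. *Cd96* resembled *Ighm* (r = 0.99), *Tmem184c* and *Smc5*. *Ctla4* resembled *Prdx6* (r = 0.99), *Rnf125* and *Stard4*, and *Lag3* resembled *Rcn2* (r = 0.97), *Gak* and *Tssc4*.

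Promoter sequences in RefSeq (GRCm38.p6) matched 6 of the 8 genes by symbol. The 250 bases before each start were searched on both strands for TGTGGT, the core letters bound by RUNX factors, which 14.0% of 32851 promoter windows of this length hold, and for TGANTCA, the letters of the AP-1 motif, which 6.75% hold. Windows of *Tigit*, *Cd96* and *Havcr2* held 1 RUNX match each, as did each of 2 promoters of *Cd160*, and *Havcr2* also held 1 AP-1 match, whereas *Ctla4* and *Pdcd1* held neither. A match describes letters and not a bound site. The starts are those of RefSeq, whereas the gene positions above are those of GENCODE. The *Ctla4* window therefore lies inside the span given for that gene, which begins further upstream. The windows are printed for *Tigit* (chr16:43664185-43664434, minus strand), *Havcr2* (chr11:46454681-46454930, plus strand) and *Ctla4* (chr1:60908775-60909024, plus strand), since these genes rose in lung KO while only *Havcr2* fell in spleen KO; capitals mark the matches, on either strand, and sequences run 5′ to 3′ towards the start.
Tigit: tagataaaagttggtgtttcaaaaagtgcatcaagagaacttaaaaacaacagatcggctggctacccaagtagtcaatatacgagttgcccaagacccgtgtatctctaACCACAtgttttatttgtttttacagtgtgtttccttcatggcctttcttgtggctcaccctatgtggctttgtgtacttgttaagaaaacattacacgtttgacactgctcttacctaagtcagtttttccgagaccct
Havcr2: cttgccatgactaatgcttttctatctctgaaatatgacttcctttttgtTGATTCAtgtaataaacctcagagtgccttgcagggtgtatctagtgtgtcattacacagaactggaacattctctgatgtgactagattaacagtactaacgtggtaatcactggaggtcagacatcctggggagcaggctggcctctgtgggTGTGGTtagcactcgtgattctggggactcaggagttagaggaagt
Ctla4: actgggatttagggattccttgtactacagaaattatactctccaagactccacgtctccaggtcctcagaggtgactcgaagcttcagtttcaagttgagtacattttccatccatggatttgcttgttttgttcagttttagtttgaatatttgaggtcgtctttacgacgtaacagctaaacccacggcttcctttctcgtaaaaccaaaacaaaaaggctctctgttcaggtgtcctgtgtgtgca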

How the data were processed

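The authors aligned 50 bp reads to mm10 with HISAT2 2.1.0, counted them on genes with HTSeq (0.11.1 in the submitters' processing notes) and deposited the counts of each symbol unnormalized. Annotation and strand setting of the counting are not given in the sources used here. Between 52.7% and 55.0% of uniquely aligned reads fell on no feature and were left out. Testing used edgeR 4.0.16 under R 4.3.3 (filterByExpr over the 4 groups, TMM factors of 0.954 to 1.03, a mean for each group fitted to all 8 libraries, quasi-likelihood test, Benjamini-Hochberg adjustment over 12595 genes, FDR 0.05). SE came from the F statistic. Alternatives used DESeq2 1.42.0, other scalings and filters, assumed variation, a GC offset, the replicate number as a block, and leaving out each library. Lower bounds without single libraries were added after seeing the data. Steps were tested on simulated counts. GENCODE M21 (GRCm38) supplied gene positions, exon lengths and base composition, with 46394 of 48321 symbols matched by name, 591 by an older symbol and 1336 not matched. Members of the set and the gene lists were chosen with earlier results of these data known. From each list, called genes with the largest change, at most 3 a direction and comparison, and its most abundant gene could be named, with others as values; genes resembling a receptor are the 3 highest by r among genes with a mean log2 CPM of at least 3 (prior count 2).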

Additional observations from a re-analysis of the deposited data

Results flagged for a closer look

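For 4 of the receptor genes, the effect of KO differed between lung and spleen by edgeR's quasi-likelihood test of the difference (lung minus spleen, log2 scale). With 61.6% of all genes tested called for this difference, the count itself says nothing particular about the receptors. The calls of *Lag3* and *Havcr2* are conditional on these genes having passed the filter through their high groups. The difference was 3.31 for *Lag3*, which rose in lung KO and fell in spleen KO, and 2.56 with the GC offset. For *Havcr2*, which did the same, the fitted difference was 10.52, a value that depends on the prior count because spleen KO had no reads, and is no bound. For *Cd226*, which fell in both organs, the difference was -0.46, and it turned to 0.25 with the GC offset. For *Cd96* it was -0.22, with KO libraries below *Wt* in lung and above *Wt* in spleen.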

How the results depend on the processing

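The KO effects of *Tigit*, *Cd226* and *Lag3* kept their direction in both organs under every alternative that tested them, as did that of *Havcr2* in lung. The directions of *Ctla4* in both organs and of *Havcr2* in spleen could not turn, since 1 of the groups had no reads. *Havcr2* also kept its call in lung, and *Lag3*, *Havcr2* and *Ctla4* were not tested when 10 counts were required in every library. Calls depend most on the assumed spread between libraries. Those of *Lag3*, *Havcr2* and *Ctla4* are conditional on passing the filter through their high groups. That they outlast other calls below is therefore no support for them. With a biological coefficient of variation of 0.1 for every gene, 4395 genes were called in lung and 4112 in spleen for KO, and 4673 for lung against spleen in *Wt*; receptor genes called were 3 in spleen (*Ctla4*, *Havcr2*, *Lag3*) and 2 for the difference of the KO effects (*Havcr2*, *Lag3*). With 0.2, genes called were 1557 in lung, 1144 in spleen, 2017 for the difference, 2011 for lung against spleen in *Wt* and 2316 in KO; receptor genes called were the same 3 in lung and in spleen, 2 for the difference, 2 for lung against spleen in *Wt* (*Cd160*, *Havcr2*) and 3 in KO (*Cd160*, *Havcr2*, *Lag3*), so *Tigit* and *Cd226* lost their calls in both organs.

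DESeq2 called 4507 genes in lung and 4165 in spleen, and 3 receptor genes for lung against spleen in *Wt* (*Cd160*, *Cd96*, *Havcr2*); calls it ended were those of *Cd160* in lung, *Cd96* and *Cd226* in spleen, *Lag3* and *Cd226* for lung against spleen in *Wt*, and *Ctla4* for lung against spleen in KO. At an FDR of 0.001, 4131 genes were called in lung, 4388 in spleen, 5106 for the difference and 4426 for lung against spleen in *Wt*, the last with 3 receptor genes. Requiring 10 counts in every library leaves *Tigit*, *Cd96*, *Cd226* and *Cd160* to be tested, with 3 receptor genes called in each of the comparisons of groups and 2 for the difference. Library totals moved the median of all genes by 0.09 in lung and 0.16 for the difference, raised the share of higher genes among calls in lung from 52.5% to 63.3% and lowered it in spleen from 49.3% to 41.2%, and turned the difference of the *Cd160* effects to 0.027; the share also fell from 48.6% to 36.9% for lung against spleen in *Wt*, and rose from 52.9% to 63.5% for the difference. Library totals also ended the call of *Cd226* for lung against spleen in *Wt* and called *Tigit* there and for the difference. With all 21508 symbols that have at least 1 read, *Pdcd1* was tested and called for KO in spleen and for lung against spleen in *Wt*, the latter against a group without reads. Scaling by RLE or upper-quartile factors changed no call of a receptor gene.

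With the GC offset, the *Tigit* values turned to -0.17 for the difference, 0.018 for lung against spleen in *Wt* and -0.15 in KO, and those of *Cd226* to 0.25 for the difference and -0.33 for lung against spleen in *Wt*, while *Cd226* lost its call for lung against spleen in KO (-0.08). With the GC offset and the replicate block together they were -0.17, 0.030, -0.14, 0.25 and -0.33. The labels do not say whether equal replicate numbers pair the libraries. Deviations of equally numbered libraries correlated by 0.0045 between lung and spleen in *Wt* and by -0.0758 in KO. Between *Wt* and KO they correlated by 0.169 in spleen and -0.0139 in lung. With so narrow a spread between libraries, low correlations cannot exclude a pairing. The replicate block alone gave 6977 genes called in lung and 7185 in spleen, and changed no call of a receptor gene. Leaving out each library in turn gave 3 to 5 receptor genes called for lung against spleen in *Wt*, 4393 to 7266 genes called in spleen, and -0.036 to 0.10 for *Tigit* in lung against spleen in KO. A lone library left in a group is assumed to vary like the other groups. The cause of these changes was not tested beyond what fewer genes or fewer libraries bring about by construction. Depth limits *Lag3*, *Havcr2*, *Ctla4* and *Pdcd1* most, with 0 to 49 reads a library.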
